A study of Drosophila melanogaster with 12 samples.

Results

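Octopamine is the insect counterpart of noradrenaline. Tyrosine is decarboxylated to tyramine by tyrosine decarboxylases, Tdc2 in neurons and Tdc1 mainly outside them, tyramine is hydroxylated to octopamine by tyramine β hydroxylase (Tbh), and the vesicular monoamine transporter (Vmat) loads the amine into vesicles for release. Octopamine then acts on G protein-coupled receptors, of which Oamb raises intracellular calcium and the β-adrenergic-like receptors Octbeta1R, Octbeta2R and Octbeta3R act through cAMP, while Oct-TyrR responds best to tyramine. In flies the amine is released by neurons that innervate the ovary and oviduct and is needed for ovulation. The probe sets described here are those that the array annotation maps to a single gene and to one of these 9. There were 17 such probe sets for 8 of the genes, out of 18769 probe sets that are not array controls. Vmat and Octbeta3R had 4 each, Octbeta1R had 3, Octbeta2R had 2, and Tdc1, Tdc2, Tbh and Oct-TyrR had 1 each.

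The annotation gave Oamb no probe set. The study's own supplementary table pairs 1 probe set with Oamb, and it stands in that table because of its difference in abdomen. Its values are therefore described below without a test, and it enters no count of the 17. One further probe set maps to both Octbeta2R and CG42713 and was left out of the counts for that reason. In the reference annotation Tdc1 and Tdc2 are neighbours on the chromosome, and so are Octbeta2R and Octbeta3R.

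RNA came from females that carried the mutant alleles loj 00898 and loj 04026 over each other, hereafter loj, and from controls that carried 1 of these alleles over a wild-type chromosome. loj encodes a p24 protein, one of a family that sorts cargo between the endoplasmic reticulum and the Golgi. Each sample held tissue of 12 females, for controls 6 of each heterozygous genotype, so that all groups carried at least 1 mutant copy of loj. All females were 4 days old and were dissected 3 h after mating to a wild-type male. Abdomens, with ovaries, gut and genital tract but without central ganglia, and the combined head and thorax, which hold the central nervous system, were measured on 3 arrays per genotype, 12 arrays in all.

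Values are linear intensities of probe sets, in arbitrary units, and are set only against the same probe set on other arrays. Background is taken per array from 27 probe sets for bacterial spike-in genes, at their 95th percentile, which ran from 76.8 to 108 in loj abdomens, from 91.2 to 131 in control abdomens, from 126 to 236 in loj head/thorax and from 206 to 256 in control head/thorax. The loj probe set averaged 39.6 in loj abdomens and 1024 in control abdomens, and 34.7 in loj head/thorax and 1135 in control head/thorax. Summed intensities of 8 neuron markers were 224 to 245 in loj abdomens, 228 to 256 in control abdomens, 4149 to 4669 in loj head/thorax and 4242 to 4615 in control head/thorax, and none of the 8 was above background on all 3 arrays of either abdomen group. One loj head/thorax array, replicate 1, stood apart in 18S ribosomal RNA (3′ probe set 4103, against 569 or less on the other loj head/thorax arrays), and the 3′ to 5′ log2 ratio of Act5C, a measure of RNA quality, was 0.79 to 1.02 in loj head/thorax and 1.33 to 1.44 in control head/thorax. In abdomen this ratio was 0.67 to 0.72 in loj and 0.76 to 0.91 in control females, again without overlap, and control abdomen replicate 3 had an 18S value of 639, against 83.2 and 137 on the other control abdomen arrays.

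Of the 17 probe sets, 8 were above background on every array of at least 1 group: those of Tdc1 and Tbh, 3 of Vmat, 2 of Octbeta1R and 1 of Octbeta3R. The remaining 9, which include those of Tdc2 and Oct-TyrR and both of Octbeta2R, were not. Octbeta1R 1640745_at and Octbeta3R 1626861_at, also among them, were below background on all 12 arrays. In bulk tissue, fewer cells of a type and less RNA per cell cannot be told apart.

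**Figure D1:**
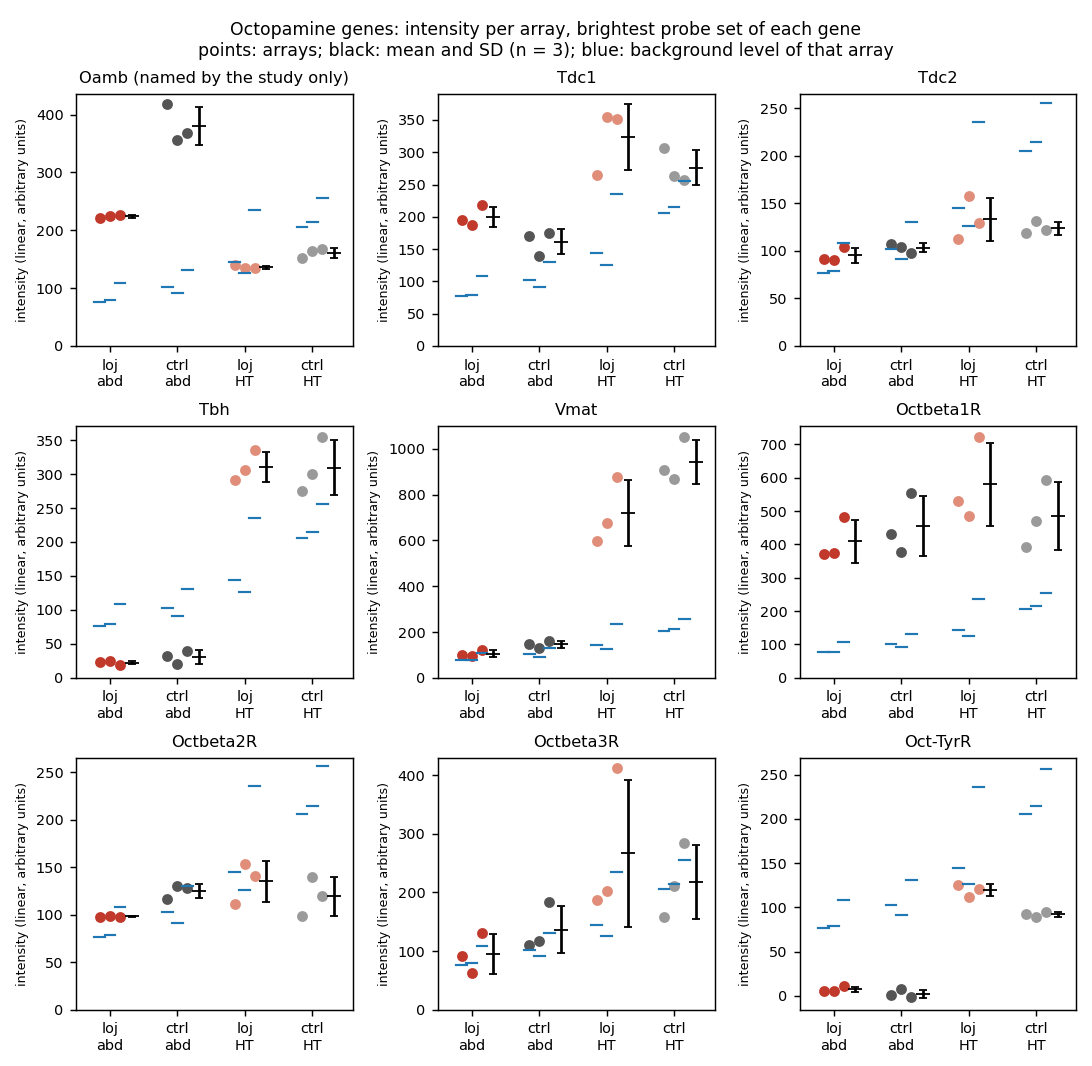
Intensity (linear scale, arbitrary units) of the brightest probe set of each octopamine gene on the 12 arrays, with loj abdomen, control abdomen, loj head/thorax and control head/thorax from left to right (abd, abdomen; HT, head/thorax). Points are arrays, black bars the mean and SD (n = 3), blue lines the background level of each array; Vmat and Tbh stand at 292 or more in head/thorax of loj females, while Tdc1 and Octbeta1R are above background in every group.

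The first question was whether transcripts of the octopamine pathway differ between loj and control females in the abdomen. None of the 17 probe sets passed the test (limma, Benjamini-Hochberg adjusted p under 0.05 over all probe sets and at least 1.5-fold), while 0.874% of all probe sets did. An unadjusted p under 0.05 was found for 3 probe sets, 17.6% of the members against 13.9% of all probe sets. In 3 the arrays of the genotypes did not overlap, again 17.6%, against 19.5% of all. Adjusted p-values by limma ran from 0.182 to 1, and the median log2 fold change was -0.12 against -0.03 over all probe sets.

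Among the synthesis genes, Tdc1 had intensities of 195, 188 and 218 in loj abdomens, against 169.5, 139 and 175 in control abdomens. Each loj array was above each control array, and the log2 fold change was 0.32 (SE 0.12, adjusted p = 0.324 by limma), with a 95% interval of the fold of 1.02 to 1.53. Tdc2, the neuronal decarboxylase, had 91.5, 90.0 and 104 in loj abdomens, against 108, 104 and 98.3 in control abdomens. Those groups overlapped, and the values lay around the background level (log2 fold change -0.12, SE 0.11, adjusted p = 0.706 by limma). Tbh had 23.8, 24.2 and 19.4 in loj abdomens, against 32.2, 20.2 and 39.8 in control abdomens, all far below background.

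The Vmat probe set that was above background in every group, 1628739_at, had 98.8, 93.5 and 122 in loj abdomens, against 149, 129.5 and 159 in control abdomens. Every loj array was below every control array, with a log2 fold change of -0.48 (SE 0.15, adjusted p = 0.218 by limma). The other 3 Vmat probe sets were below background on all abdomen arrays. One of them, 1637393_at, was below 0 on all 6.

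Among the receptors, the brighter Octbeta2R probe set, 1641186_at, had 97.9, 99.1 and 97.7 in loj abdomens, against 116.5, 130.2 and 128 in control abdomens. The groups did not overlap, and the log2 fold change was -0.34 (SE 0.09, adjusted p = 0.182 by limma), the lowest adjusted p among the members in abdomen. The Octbeta1R probe set that was above background on all 12 arrays, 1635190_at, had 371, 374 and 483 in loj abdomens, against 433, 377 and 554 in control abdomens. These groups overlapped (log2 fold change -0.14, SE 0.18, adjusted p = 0.78 by limma, 95% interval of the fold 0.672 to 1.22). Octbeta3R 1636627_at also overlapped, with 91.0, 61.9 and 130.3 in loj abdomens, against 110.4, 117 and 183 in control abdomens. The Oct-TyrR probe set, at 5.93 to 10.97 in loj abdomens and -1.77 to 7.24 in control abdomens, was far below background in both.

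Oamb, the receptor needed for ovulation in the oviduct and in mature follicles, averaged lower in loj abdomens, as the way its probe set was chosen implies. It had 221, 225 and 226 in loj abdomens, against 418, 357 and 368 in control abdomens. The means were 224 ± 3.12 in loj and 381 ± 32.6 in control abdomens (SD, n = 3 each), a 1.70-fold lower level in loj, and all 6 arrays were above background. On these arrays the summed intensity of 5 eggshell genes of the follicle cells (Vm26Aa, Vm34Ca, Cp36, Cp15 and dec-1) was 25308 to 34077 in loj abdomens and 38096 to 43137 in control abdomens, with all 5 above background in both groups and none passing the test (adjusted p 0.112 to 0.747 by limma). All 5 averaged lower in loj, with log2 fold changes from -0.36 for Cp36 to -1.59 for dec-1 (791 in loj and 2239 in control abdomens). The study lists dec-1 and Cp15 as lower in loj abdomens. The summed intensity of the spermathecal genes Send1 and Send2 was 6033 to 6483 in loj abdomens and 4463 to 5425 in control abdomens. The part of either in the Oamb values was not tested, nor was that of the Act5C ratio, which separated the abdomen groups, in the values of Oamb, Vmat, Octbeta2R and Tdc1. Without control abdomen replicate 3 the log2 fold changes in abdomen were -0.79 for Oamb, -0.42 for Vmat 1628739_at, -0.33 for Octbeta2R 1641186_at and 0.38 for Tdc1.

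In head/thorax, where most octopamine neurons lie, again none of the 17 probe sets passed the test, against 1.86% of all probe sets. An unadjusted p under 0.05 was found for 5, 29.4% of the members against 17.8% of all. In 5 the genotypes did not overlap, likewise 29.4%, against 23.8% of all. The median log2 fold change was 0.18 over the members and -0.01 over all probe sets. Of the 3 brighter Vmat probe sets, each averaged lower in loj, while the log2 fold changes of Tbh, Tdc2 and Tdc1 were 0.01, 0.09 and 0.22.

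Vmat 1637393_at had 339.6, 365 and 339 in loj head/thorax, against 417, 401 and 431 in control head/thorax. Vmat 1636275_a_at had 471, 467 and 415 in loj head/thorax, against 552, 545 and 532 in control head/thorax. In both, every loj array was below every control array, yet the log2 fold changes of -0.26 (SE 0.06, adjusted p = 0.0972) and -0.27 (SE 0.07, adjusted p = 0.0997) did not pass by limma. The third, 1628739_at, had 598, 678 and 878 in loj head/thorax, against 908, 866 and 1050.0 in control head/thorax. Here 1 loj array lay within the control range (log2 fold change -0.41, SE 0.15, adjusted p = 0.25 by limma). The dimmest, 1632856_s_at, had the opposite sign, with 67.4 to 74.5 in loj head/thorax and 47.1 to 67.9 in control head/thorax, all below background. Probe sets of 1 gene share its transcripts, so that the 3 lower values are not independent. Without loj head/thorax replicate 1 the log2 fold changes of 1637393_at, 1636275_a_at and 1628739_at were -0.24, -0.30 and -0.28. The part of the Act5C ratio, which separated the head/thorax groups, was not tested.

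Summed intensities of the neuron markers overlapped between the genotypes, as given above, and the median log2 fold change of the 8 was -0.01. The sums include the calcium channel gene cac, the only marker of the 8 with a log2 fold change above 0. It was higher in loj head/thorax (659.7 against 353 in control head/thorax, log2 fold change 0.89, adjusted p = 0.0274 by limma). The acetylcholine transporter gene VAChT was at 588 in loj and 753 in control head/thorax (log2 fold change -0.36, adjusted p = 0.0219 by limma, under 1.5-fold). ChAT averaged 1139 in loj and 1265 in control head/thorax (log2 fold change -0.15, adjusted p = 0.0935 by limma). The remaining markers were at -0.05 to -0.002. The part of neuron content in the Vmat values was not tested. The 4 measured markers of amine neurons had a median log2 fold change of -0.07 in head/thorax and none was called. Among them, the serotonin transporter gene SerT averaged 186 in loj and 245 in control head/thorax (log2 fold change -0.41, adjusted p = 0.162 by limma), and the dopamine transporter gene DAT 151 in loj and 182 in control head/thorax (log2 fold change -0.27, adjusted p = 0.333 by limma). The enzyme genes had the other sign, with log2 fold changes of 0.13 for ple (adjusted p = 0.678 by limma) and 0.57 for Ddc (adjusted p = 0.224 by limma).

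Tbh, which makes octopamine from tyramine, had 292, 306 and 335 in loj head/thorax, against 274, 300.1 and 354 in control head/thorax. The groups lay within one another, and the 95% interval of the fold, 0.831 to 1.22, includes no change and leaves out a 1.5-fold difference. Tdc1 had 264, 355 and 351 in loj head/thorax, against 307, 263 and 258 in control head/thorax (log2 fold change 0.22, SE 0.14, adjusted p = 0.5 by limma). Tdc2 had 113, 158 and 129 in loj head/thorax, against 119, 131 and 122 in control head/thorax. Both decarboxylases overlapped between the genotypes, and Tdc2 was below background on 5 of the 6 arrays.

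Among the receptors in head/thorax, Oct-TyrR had 126, 112 and 121 in loj, against 92.3, 89.1 and 94.5 in control females. The groups did not overlap (log2 fold change 0.38, SE 0.12, adjusted p = 0.166 by limma), but no value was above the background of its array. This depends on the background level chosen. The level from the 12 newer-type controls alone was 43.1 to 75.8 on head/thorax arrays, and every Oct-TyrR value there was above it. Octbeta3R 1630381_at had 105, 106 and 91.8 in loj head/thorax, against 77.6, 77.8 and 75.7 in control head/thorax, with a log2 fold change of 0.38 (SE 0.13, adjusted p = 0.201 by limma) and no value above the main background level. Against the newer-type level only control replicate 3 was not above background, at 75.73 against 75.79. The brighter Octbeta3R probe set, 1636627_at, had 187, 202 and 412 in loj head/thorax, against 158, 210.5 and 284 in control head/thorax, and its groups overlapped. Both Octbeta1R probe sets with signal overlapped as well, 1635190_at at 531, 486 and 723 in loj and 393, 469 and 593 in control females, and 1626050_at at 313, 331 and 233 in loj and 378, 335 and 282 in control females. Octbeta2R 1633087_at, below background throughout, had 22.7 to 36.7 in loj head/thorax and 39.6 to 51.9 in control head/thorax (log2 fold change -0.58, SE 0.27, adjusted p = 0.338 by limma).

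Oamb had 139, 135 and 134 in loj head/thorax, against 151, 164 and 168 in control head/thorax. The arrays of the genotypes did not overlap, but only 1 loj array and no control array was above background there, and the means were 136 ± 2.75 in loj and 161 ± 8.41 in control females (SD, n = 3 each). Against the level from the newer-type controls all these Oamb values were above background. Its log2 fold change in loj was -0.76 in abdomen and -0.24 in head/thorax, a difference of -0.52 that, like the rest of its values, was not tested.

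**Figure D2:**
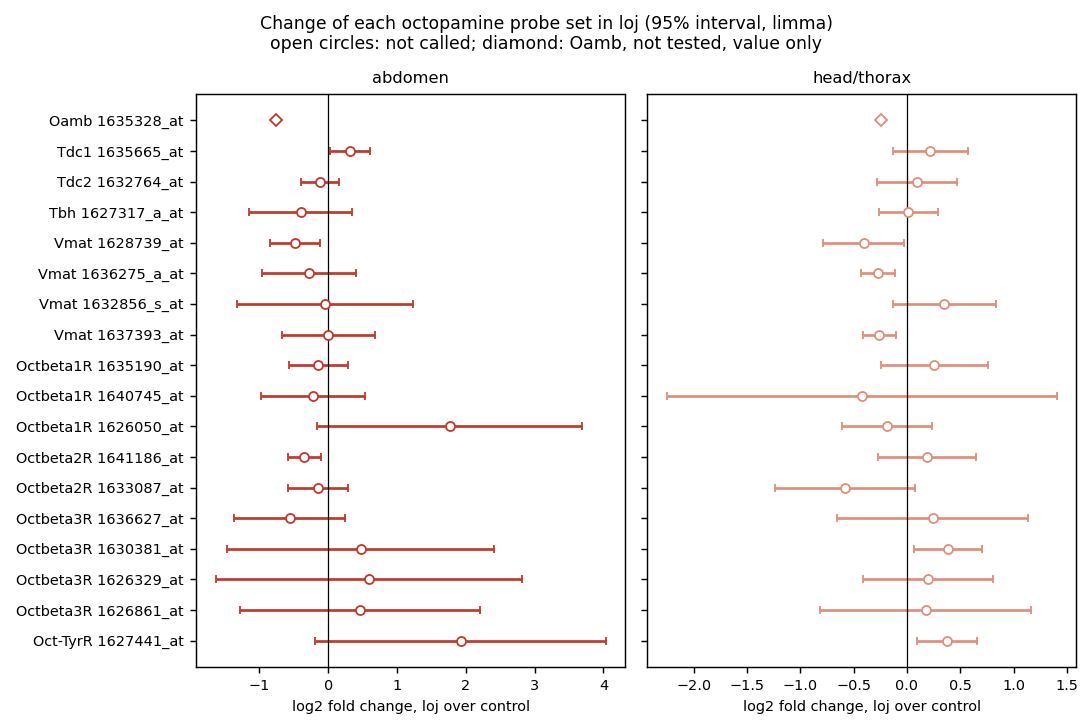
Log2 fold change, loj over control, of the 17 octopamine probe sets in abdomen (left) and head/thorax (right), with 95% intervals from limma. Open circles are probe sets that were not called, which is all 17 in both tissues, and the diamond is Oamb, shown as a value only, at -0.76 in abdomen and -0.24 in head/thorax.

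Whether the loj change differed between the tissues was tested as an interaction over all 12 arrays. None of the 17 probe sets passed at an adjusted p under 0.05 by limma, against 0.506% of all probe sets, and 2 had an unadjusted p under 0.05 (11.8% of members, 9.38% of all). These were Octbeta2R 1641186_at, with a log2 difference of -0.53 (abdomen minus head/thorax, adjusted p = 0.469 by limma), and Octbeta1R 1626050_at, with 1.96 (adjusted p = 0.488 by limma). The abdomen values of this Octbeta1R probe set were 2.12 to 9.71 in loj and -0.88 to 3.51 in control females, so that its difference rests on values near 0. For Vmat 1628739_at, lower on average in loj in both tissues, the difference was -0.08 (SE 0.22, adjusted p = 0.955 by limma).

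Counted by probe set, the pathway was distributed unevenly between the tissues. In loj females 11 of the 17 probe sets were lower in abdomen than in head/thorax and none was higher, 64.7% lower against 35.1% of all probe sets. In control females 10 were lower and none higher, 58.8% against 33% of all probe sets. All 4 Vmat probe sets are among the lower ones in each genotype, and probe sets of 1 gene are not independent. For 4 of the lower probe sets of each genotype neither tissue was above background. How arrays of the tissues were scaled to one another is unknown here, and the scaling moved the median log2 difference of all probe sets: -0.29 in loj and -0.22 in control females as deposited, 0.11 and 0.15 after quantile normalization, 0.33 and 0.37 after median centring. In loj females the calls over all probe sets split into 4040 higher and 6590 lower in abdomen as deposited, 5291 and 4867 after quantile normalization, and 6728 and 4002 after median centring. In control females the split was 4246 and 6198, 5509 and 4788, and 6922 and 4008 under the same scalings. In each genotype 9 of the lower probe sets were called lower under all 3 scalings. The share of all probe sets called lower under all 3 was not computed, so that this count has no comparison. Among the 9, the brighter tissue was above background on some or all arrays for 6 in loj and 5 in control females. In loj head/thorax Octbeta1R 1626050_at was above on 2 of the 3 arrays, and the rest on all 3. Octbeta2R was called higher in abdomen only under the alternatives, 1641186_at in control and 1633087_at in loj females under both, and no size is given because neither was above background on all arrays of either tissue.

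Vmat, Tbh and Octbeta1R 1626050_at were the clearest of these. Vmat 1628739_at, measured in both tissues, averaged 105 ± 15.4 in loj abdomens and 718 ± 144 in loj head/thorax (SD, n = 3 each), a log2 difference of -2.77 (SE 0.15, adjusted p = 1.33e-08 by limma). In control females it averaged 146 ± 15.1 in abdomens and 941 ± 96.3 in head/thorax (log2 difference -2.69, SE 0.15, adjusted p = 1.61e-08 by limma). For the others the abdomen was not above background, so that the fold is a lower bound set by the lowest level counted as above background. These bounds hold for the values as deposited and were not computed under the other scalings. After median centring the log2 difference of Tbh was -3.17 in loj and -2.79 in control females, against -3.80 and -3.38 as deposited. Tbh was at least 3.57-fold lower in abdomen in loj and at least 2.88-fold lower in control females. Vmat 1636275_a_at was at least 5.18-fold lower in loj and at least 5.08-fold lower in control females, and Vmat 1637393_at at least 4.00-fold and at least 3.89-fold lower. Octbeta1R 1626050_at was at least 3.33-fold lower in loj and at least 3.08-fold lower in control females. Its loj bound includes a head/thorax array, replicate 3, that was not above background (233 against a level of 236).

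Probe sets of Octbeta1R did not behave alike. While 1626050_at differed between the tissues, 1635190_at averaged 409 ± 63.7 in loj abdomens and 580.0 ± 126 in loj head/thorax, and 455 ± 90.5 in control abdomens and 485 ± 100.8 in control head/thorax, and was not called in either genotype. In loj its log2 difference was -0.49 as deposited (adjusted p = 0.0465 by limma, under 1.5-fold) and 0.13 after median centring. Over the 12 arrays, log2 intensities of Octbeta1R 1635190_at and 1626050_at correlated at 0.43. The third, 1640745_at, was below background on all arrays and correlated with these at -0.44 and -0.41. The 4 Vmat probe sets correlated pairwise at 0.88 to 0.99, across arrays of both tissues. Which transcripts each Octbeta1R probe set detects was not analysed here.

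Oct-TyrR and Octbeta3R 1630381_at were called lower in abdomen in both genotypes, but neither tissue was above the main background level and no fold is given. The same holds for Vmat 1632856_s_at and for Octbeta3R 1626329_at, whose call in loj was lost after quantile normalization and median centring (adjusted p = 0.064 and 0.113 by limma). Octbeta3R 1636627_at was called lower in abdomen in loj (94.4 ± 34.3 in abdomens, 267 ± 126 in head/thorax, log2 difference -1.47, adjusted p = 0.00336 by limma) and was not called in control females (137 ± 40.3 and 218 ± 63.6, log2 difference -0.67, adjusted p = 0.127 by limma), although the Cyber-T style test called it there too (adjusted p = 0.00648). The difference between these was the interaction, which it did not pass (log2 difference -0.80, SE 0.51, adjusted p = 0.709 by limma).

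Tdc1 was above background in every group. It averaged 200.3 ± 15.6 in loj abdomens and 323 ± 51.4 in loj head/thorax (log2 difference -0.68, adjusted p = 0.000993 by limma), and 161 ± 19.3 in control abdomens and 276 ± 27.2 in control head/thorax (log2 difference -0.78, adjusted p = 0.000367 by limma). This call was lost under the other scalings. After quantile normalization the log2 difference was -0.44 in loj and -0.43 in control females, under 1.5-fold, and after median centring it was -0.06 and -0.18 (adjusted p = 0.715 and 0.232 by limma). For Tdc2 the sign itself depended on the scaling, being negative as deposited and positive under both alternatives.

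Oamb ran the other way. Its probe set averaged 224 in loj abdomens and 136 in loj head/thorax, and 381 in control abdomens and 161 in control head/thorax, and each abdomen array was above each head/thorax array. Over all processing alternatives its log2 difference, abdomen minus head/thorax, stayed between 0.61 and 1.34 in loj and between 1.10 and 1.83 in control females. Against the background level of the control head/thorax arrays the control difference as deposited was at least 1.69-fold. In order of level Oamb was highest in control abdomens, then in loj abdomens, with no overlap between them, an order that the choice of its probe set implies. That choice may also favour high control abdomen values, and with them a larger control difference between the tissues. The head/thorax groups came below both abdomen groups and are given no order, since 5 of their 6 arrays were not above the main background level. All were above the level from the newer-type controls, and there each loj array was below each control array, as given above.

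**Figure D3:**
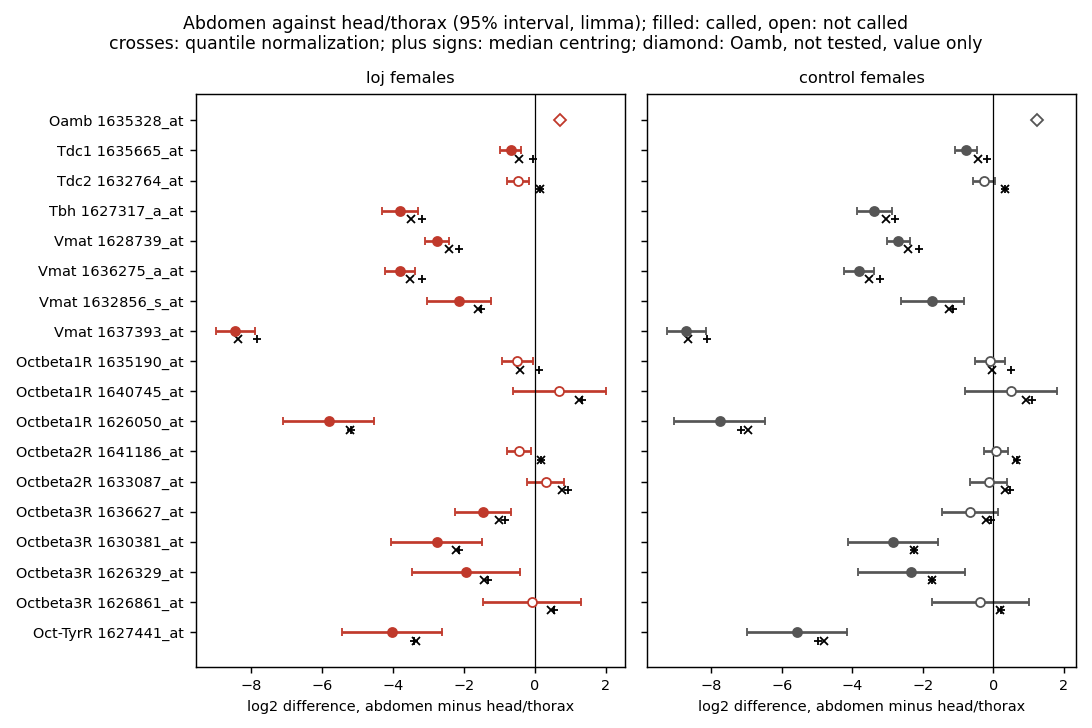
Log2 difference, abdomen minus head/thorax, of the octopamine probe sets in loj (left) and control females (right), with 95% intervals from limma; filled circles were called. Crosses and plus signs are the same differences after quantile normalization and after median centring, and Oamb (diamond, value only) is at 0.72 in loj and 1.24 in control females, to the right of 0, while Vmat and Tbh are to its left under each scaling.

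The genes around the pathway were counted in 5 further lists, each gene by its brightest probe set. Of 11 other amine receptors, none was called in loj in either tissue (of all genes, 1.05% were called in abdomen and 2.14% in head/thorax). They were Octalpha2R, a further octopamine receptor that is not among the genes described above, and receptors for tyramine, dopamine and serotonin. Lower in abdomen than in head/thorax were 9 in loj and 9 in control females, against 34.7% and 33.4% of all genes. Of these, 8 were lower in both genotypes, while TyrRII passed in loj alone and TyrR in control females alone. None of the 11 was above background on all arrays of either abdomen group, and 3 were in head/thorax of each genotype. Of 9 genes for the synthesis, uptake and breakdown of amines, Ddc, the decarboxylase that makes dopamine and serotonin, was the only one called: it averaged 870.5 in loj abdomens and 291 in control abdomens (log2 fold change 1.60, SE 0.17, adjusted p = 0.0214 by limma). In head/thorax Ddc averaged 3869 in loj and 2527 in control females and was not called (log2 fold change 0.57, adjusted p = 0.224 by limma). The same list held ebony (e), which conjugates amines to β-alanine, at 52.2 in loj and 12.1 in control abdomens, below background in both (log2 fold change 2.14, adjusted p = 0.057 by limma).

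Of 10 genes that carry the receptor signal, such as Galphaq, Galphas, Plc21C, Itpr and rut, none was called in loj in either tissue. In abdomen Galphaq averaged 509 in loj and 623 in control females (log2 fold change -0.29, adjusted p = 0.269 by limma), and Plc21C 760.0 and 937 (log2 fold change -0.29, adjusted p = 0.305 by limma). Nor was any of 9 genes of follicle rupture and ovulation, on which octopamine acts through Oamb in mature follicles. Among these Mmp2, the matrix metalloproteinase of follicle rupture, averaged 135 in loj and 103 in control abdomens (log2 fold change 0.41, adjusted p = 0.336 by limma). Timp, its inhibitor, had an adjusted p of 0.0134 by limma in head/thorax at a log2 fold change of 0.52, under 1.5-fold.

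Of 7 genes of egg-laying neurons and the mating response, none was called. Ilp7, an insulin-like peptide of neurons that innervate the reproductive tract, averaged 47.5 in loj and 120.4 in control abdomens (log2 fold change -1.37, adjusted p = 0.0522 by limma). It was above background on 2 of the 3 control arrays and on none of loj. SPR, the sex peptide receptor, averaged 1062 in loj and 820.2 in control head/thorax (log2 fold change 0.37, adjusted p = 0.024 by limma, under 1.5-fold).

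**Figure D4:**
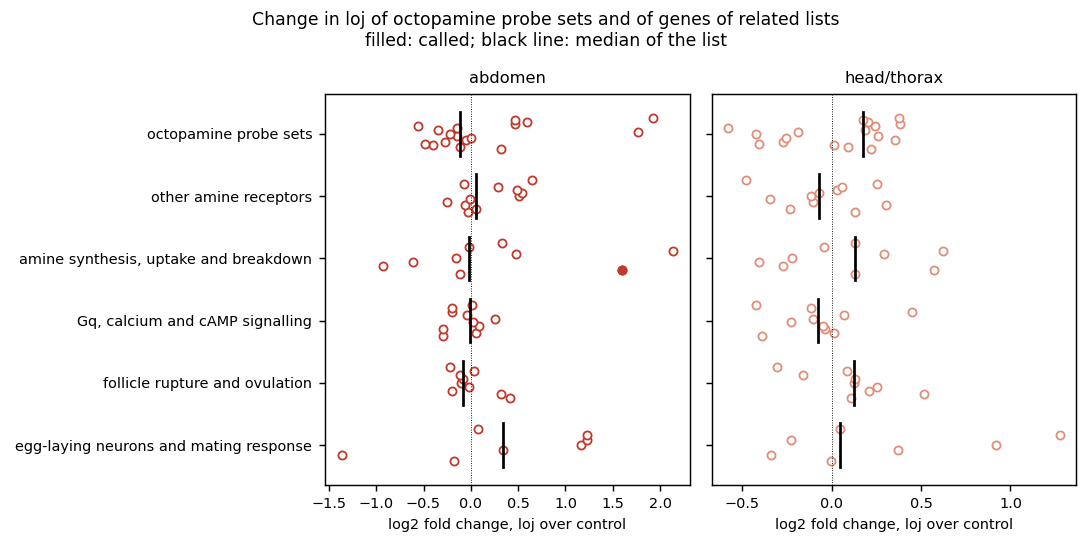
Log2 fold change, loj over control, of the 17 octopamine probe sets (top) and of the genes of 5 related lists, in abdomen (left) and head/thorax (right). Each circle is a probe set or gene, filled where called, and black lines are medians; Ddc in abdomen, at 1.60, is the only filled circle.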

How the data were processed

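RNA of 12 samples was hybridized to Affymetrix Drosophila Genome 2.0 arrays, 1 array per sample and 3 per group, from separate RNA extractions. The deposited files give an intensity per probe set and array, on a linear scale. According to the methods, the authors computed dChip (PM-MM and PM) and GCOS values, GCOS 1.2 being the version in the submitters' processing notes, but the sources used here do not say which of them was deposited or how arrays were scaled. Of all values, 2.02% were below 0. The median intensity of an array was 93.4 to 102 for abdomens and 145 to 160.0 for head/thorax. The number of arrays limits the precision.

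Intensities under 1 were set to 1, which changed 10 values of the 17 probe sets, and taken to log2. The 183 array control probe sets were left out. All 18769 others were fitted with limma 3.58.1 in R 4.3.3 (empirical Bayes with an intensity trend), each tissue alone for loj against control, and all 12 arrays with 4 group means for the interaction and the tissue contrasts. Benjamini-Hochberg adjustment ran over all 18769. A call required an adjusted p under 0.05 and, except in the interaction, at least 1.5-fold. The procedure was tested on simulated data.

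Symbols come from the array annotation, matched to RefSeq names: 13647 probe sets had 1 gene symbol, 402 several and 4720 none. Every member probe set is named, together with loj, the called genes of each list and the genes closest to Oamb and Tdc2 in pattern. Other list genes named were chosen after their values were seen. The members, lists, tests and background level were chosen with earlier results of these data known. Alternatives were quantile normalization, median centring, 32 added before log2, a floor of 32, 2 filters on low values, no intensity trend, a Cyber-T style test as in the methods (window 101, confidence 10), the size of threshold the methods name (unadjusted p under 0.001 and 1.5-fold), here with limma on the deposited values alone where the methods ask it of all 3 kinds of expression value by Cyber-T, no fold threshold, other sets of arrays in the fit, replicate number as a block, and leaving out each array. The background level from 12 newer-type controls was added after seeing the data. Sequences of the probes and genes were not used here.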

Additional observations from a re-analysis of the deposited data

How the results depend on the processing

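No member was called in loj against control, in abdomen or head/thorax, under any alternative, a Cyber-T style test and limma at an unadjusted p under 0.001 included, and leaving out each array in turn gave 0 to 0 in both tissues. The interaction gave 0 to 0 members without each array, and 2 when values under 32 were set to 32: Octbeta3R 1630381_at (log2 difference -0.38, adjusted p = 0.0423 by limma) and Oct-TyrR (-0.38, adjusted p = 0.0283), both of the opposite sign to the values as deposited, since all their abdomen values then stood at 32. Of the uncalled members, 6 of 17 changed sign under some alternative in abdomen, 5 in head/thorax and 9 in the interaction. Lower in abdomen than in head/thorax were 10 to 12 probe sets in loj and 10 to 10 in control females without each array. With probe sets under the median intensity left out, 5 members remained, of which 4 in loj and 3 in control females were called lower. Above background in at least 1 group were 13 members with the 12 newer-type controls in place of 8. Those added include Tdc2, above on every array, and Oct-TyrR, above on every head/thorax array. Octbeta3R 1630381_at was added too, above on every loj head/thorax array. Oamb, not a member, was then above background on every head/thorax array. Over all probe sets, calls in loj ran from 1 to 572 in abdomen around 164, and the members near background limit what could be seen.

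Replicate numbers were not taken to pair the samples, since in no comparison did every same-numbered pair correlate above 0.1. Deviations of same-numbered loj and control arrays correlated at -0.01, -0.01 and 0.03 in abdomen and 0.05, 0.04 and 0.12 in head/thorax, where each pair was above the highest other, 0.03. Over probe sets above background the head/thorax values were 0.07, 0.10 and 0.10 (highest other 0.02), and those of same-numbered abdomen and head/thorax arrays of loj were 0.19, 0.09 and 0.21 (highest other -0.01), a hint from the data that numbers share something there. Replicate 3 also had the highest median intensity and background level within each of the 4 groups. Abdomens were cut from the head/thorax of females, but the methods do not say which samples came from the same females. With replicate number as a block 0 members were called in loj in either tissue or in the interaction, and 11 in each genotype between tissues, the added one in control females being Octbeta3R 1636627_at (adjusted p = 0.00663 by limma). Over all probe sets the block left 1 call of 164 in abdomen and 135 of 350 in head/thorax. Ddc in abdomen and cac in head/thorax were not called under the block (adjusted p = 0.0867 and 0.0874 by limma).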

Other observations

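The 5 single-gene probe sets whose log2 intensity followed Oamb most closely over the 12 arrays, among 8784 candidates above background in at least 1 group, were those of CG6724 (Pearson's r 0.99), Rrp4 (0.98), Nha1 (0.98), CG32795 (0.98) and nclb (0.98). All 5 were highest in control abdomens, as their choice by likeness to Oamb implies. Nha1, a sodium/proton antiporter gene, averaged 408 in loj abdomens and 790.2 in control abdomens, and 232 in loj head/thorax and 250.2 in control head/thorax. For Tdc2 the closest were Ctu2 (r 0.91), CG7120 (0.91), CtIP (0.90), CG30010 (0.90) and Vps4 (0.90). The 12 arrays fall into 4 groups and 2 tissues, so that these correlations describe group means more than variation between samples.

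The probe set that maps to both CG42713 and Octbeta2R had 162, 169 and 223 in loj abdomens, against 188, 174 and 252 in control abdomens. In head/thorax it had 243, 239 and 279.9 in loj, against 279, 278 and 299 in control females. The genotypes overlapped in both tissues, and it was above background in every group.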
